A study of Mus musculus with 15 samples.

Results

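Small nucleolar RNAs and small Cajal body RNAs were followed through the days after whole-body proton exposure in cardiomyocytes from the left ventricle of the mouse. The set held every gene whose symbol in the annotation of the array starts with Snora (the H/ACA class), Snord (the C/D class) or Scarna (the Cajal body class). Only probe sets with a single symbol were used, and where a gene had more than 1 the probe set with the highest mean over the 15 arrays stood for it. This gave 54 genes, 20 H/ACA, 31 C/D and 3 Scarna, out of 19937 genes with a single-symbol probe set. A further 22 probe sets that carry several symbols, at least 1 of them of these families, were left out. The mean level alone decided between probe sets, but the family was chosen by measured values too: it was picked out because some of its members led the day 5 comparison with sham. Its distance from sham is therefore a description, and no test is made of the family as a whole.

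The mice were male C57Bl/6NT, 8 to 9 months old, and received 90 cGy of 1 GeV protons or a sham treatment. Titles place 2 arrays on day 1 after protons, 3 on day 3, 3 on day 5, 2 on day 12 and 2 on day 26, while the sham arrays are 2 of day 1 and 1 of day 3; the design text names other days and also iron ions, which were not analysed here. No sham array belongs to days 5, 12 or 26, so the 3 sham arrays were pooled and every comparison shares them. The labels do not say that arrays of a group came from separate mice, so p-values measure only the spread between these samples, and they state that the isolated cells may include some inflammatory and endothelial cells.

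Values are deposited log2 signals, and a difference is proton minus sham on that log2 scale. The first 2 arrays of proton day 5 had almost equal values (SD of their log2 differences 0.0768, against 0.222 to 0.527 for the other 104 pairs) and entered as their average, which left 11 proton and 3 sham samples. All 12 cardiomyocyte markers were bright, with mean levels between 10.39 (Nppa) and 12.63 (Actc1), and their summed linear signal lay between 48650 and 51364 in the proton samples and between 50305 and 51381 in sham. The arrays, in place of a depth, limit the precision of every value, and in RNA from many cells a smaller number of cells of a type cannot be told apart from less of an RNA in each cell.

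Small nucleolar RNAs guide chemical changes of other RNAs in the nucleolus. H/ACA RNAs sit in a particle with dyskerin and direct pseudouridylation, C/D RNAs sit in a particle with fibrillarin and direct ribose methylation, and a few members of each class are needed for the cutting of the rRNA precursor instead. Cajal body RNAs are built in the same ways and act on the small nuclear RNAs of the spliceosome. Most are cut out of the introns of other genes, often genes for ribosomal proteins or long noncoding RNAs, so a small RNA and the spliced RNA of its gene can be measured separately.

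The levels of the 54 genes spanned mean log2 signals from 2.82 (Snord58b) to 11.36 (Snora52), around a median of 6.40, against a median of 5.53 over all 19937 genes. A mean above 5.00, the median of all probe sets, was required for testing, and 40 of the 54 met it: 18 H/ACA, 20 C/D and 2 Scarna. The nearest gene inside that limit was Snora20 at 5.08 and the nearest outside was Snord16a at 4.96. In 3 of the 40, Snora20, Snora70 and Snord118, the sham mean was itself under the limit (4.83, 4.92 and 4.73), so they were tested because of their proton values.

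Across the whole set the median difference from sham was largest on day 5 and smallest on day 3. The median difference of the 54 genes was 0.16 on day 1, 0.10 on day 3, 0.50 on day 5, 0.34 on day 12 and 0.48 on day 26. Values above sham were found for 44, 31, 53, 48 and 49 of the 54 genes on these days. The shares of all 19937 genes were 43.6%, 47%, 51.4%, 48.9% and 60.1%. On day 5 the single one of the 54 below sham was Scarna8 (-0.11). Among the 40 tested members, which include the 3 tested because of their proton values, 35, 21, 40, 39 and 40 were above sham. The shares of the 12102 genes tested on the array were 48.3%, 51%, 51.2%, 51.9% and 58.8%. Those 12102 genes had medians between -0.01 and 0.05.

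Counting genes whose proton samples all lay above all sham samples gave the same order of days. On day 1 there were 12 such genes among the 54 (22.2%, with 11.2% of all 19937 genes), on day 3 there were 8 (14.8%, with 6.08%), on day 5 there were 36 (66.7%, with 14.6%), on day 12 there were 25 (46.3%, with 9.09%) and on day 26 there were 31 (57.4%, with 22.2%). Genes lying wholly below sham were few: Snora2b, Snord52 and Snord53 on day 1 (15.8% of all genes), Snord52 and Snord53 on day 3 (4.73%, and 4.39% of the tested genes), and Snora2b and Snord42b on day 26 (11.4%). No member lay wholly below on day 5 or day 12, where 13.2% and 11.9% of all genes did. The day 3 group has 3 samples and the other days 2, which makes a gap from sham harder to reach on day 3.

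**Figure D1:**
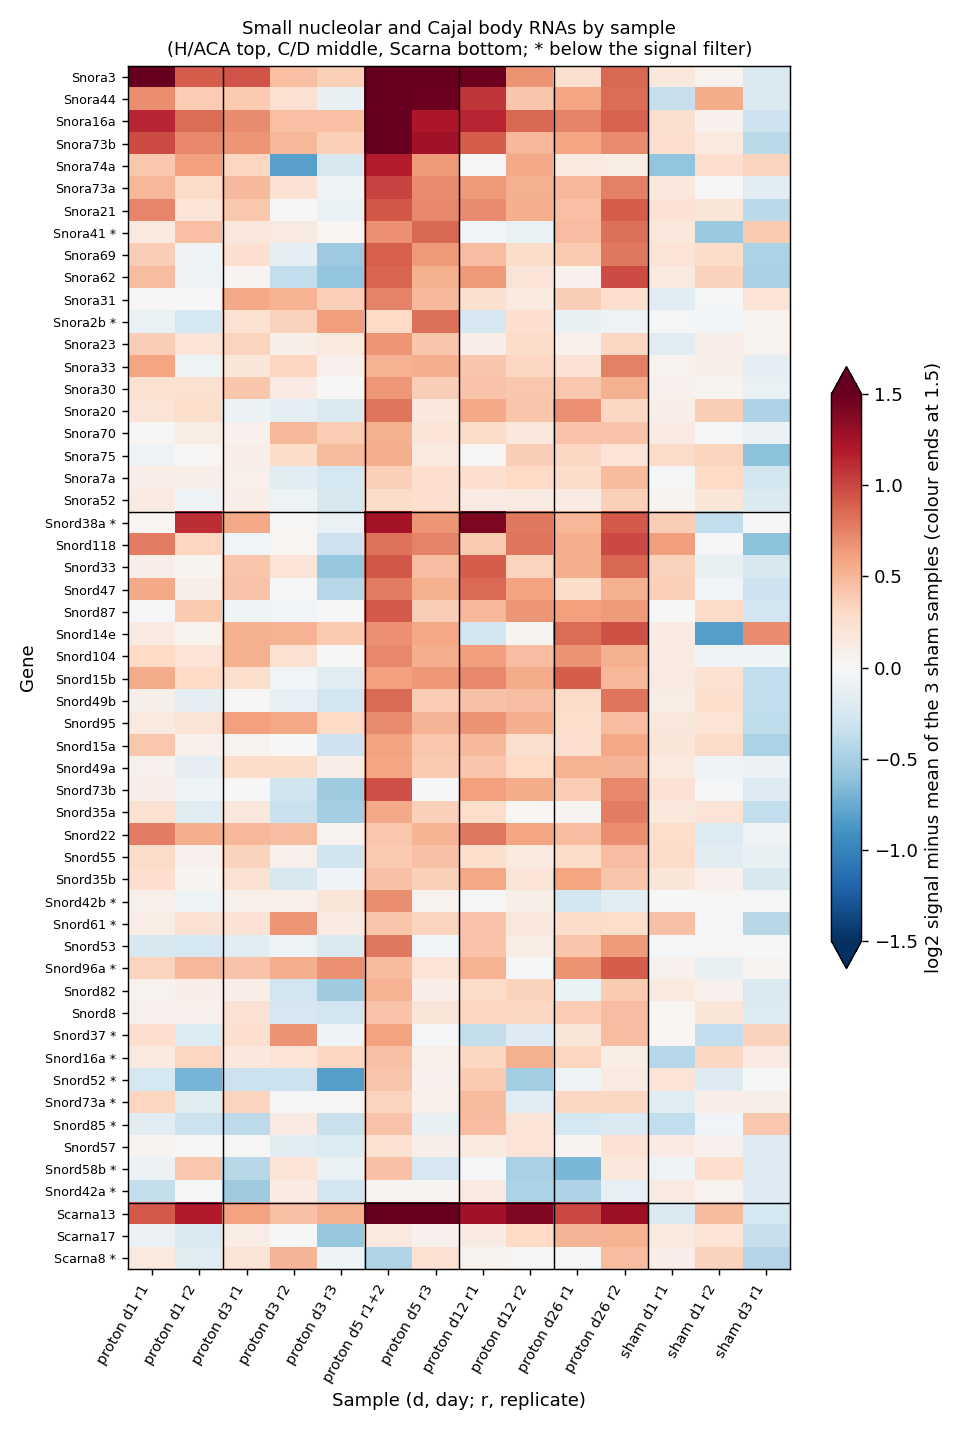
Log2 signal of each of the 54 genes (rows) in each of the 14 samples (columns, proton days in order and sham at the right), as the difference from the mean of the 3 sham samples; colour ends at 1.5 in both directions. By the median of the 54 genes the averaged day 5 pair is the highest column, and the third day 3 replicate and the sham sample of day 3 are the lowest. A star marks a gene below the limit for testing.

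Single samples moved much of the set at once. The median deviation of the 54 genes from the sham mean was 0.15 and 0.08 in the day 1 samples, 0.23, 0.11 and -0.08 in the day 3 samples, 0.63 and 0.39 in the day 5 samples, 0.43 and 0.30 in the day 12 samples and 0.34 and 0.52 in the day 26 samples. In sham it was 0.13 and 0.07 in the day 1 samples and -0.20 in the day 3 sample. The sham sample of day 3 was thus the lowest control, and it was the lowest of the 3 shams in 37 of the 54 genes. The third day 3 proton replicate was the lowest of its group in 32 of the 40 tested genes. By these medians the averaged day 5 pair was the highest sample. The other day 5 sample was below the second of day 26 and the first of day 12. In 26 of the 40 tested genes the averaged pair was the highest of the 14 samples.

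With the sham samples of day 1 alone as the control, the median over the 40 tested genes was 0.45 on day 5, 0.29 on day 12, 0.40 on day 26, 0.03 on day 1 and -0.10 on day 3, against 0.58, 0.40, 0.52, 0.18 and 0.01 with all 3. Above that control were 39 of the 40 on day 5, 38 on day 12, 39 on day 26, 23 on day 1 and 16 on day 3. The shares of all genes tested were 51.1%, 52.2%, 58.7%, 49.4% and 50.3%. Leaving out 1 proton array of day 3 gave a day 3 median of -0.11 without the first replicate, 0.04 without the second and 0.20 without the third, so its sign depended on the array left out. The medians of days 5, 12 and 26 were above 0 with either control, but both controls hold the same sham samples of day 1. Since those days have no sham of their own, protons cannot be told apart there from time or from a batch.

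**Figure D2:**
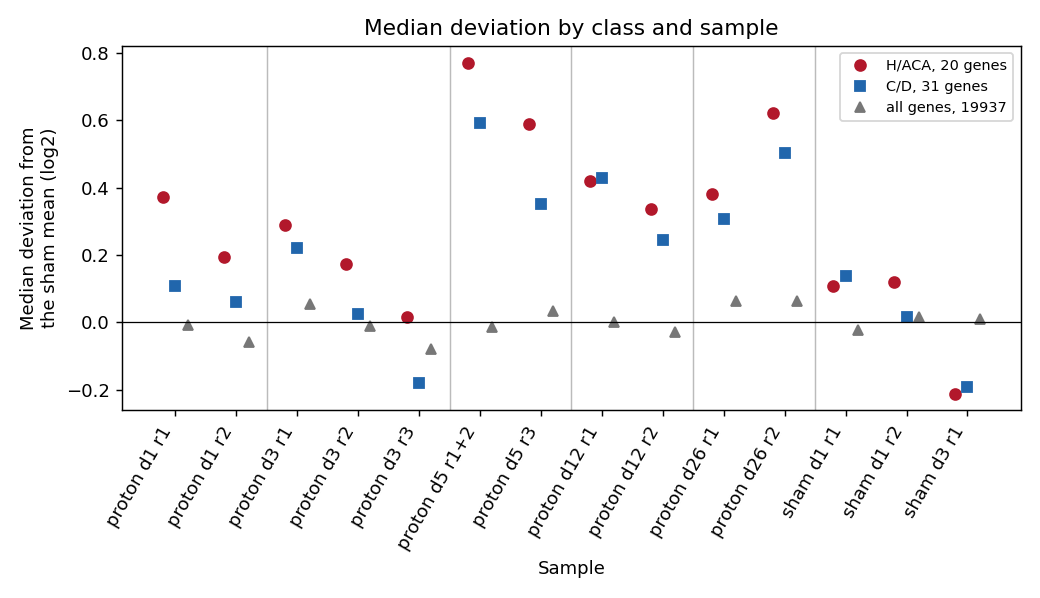
Median deviation from the mean of the sham samples (log2, vertical axis) in each of the 14 samples (horizontal axis), over 20 H/ACA genes, 31 C/D genes and all 19937 genes. Both classes stand above all genes in every sample of days 5, 12 and 26, and both are lowest in the sham sample of day 3.

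The H/ACA class had the larger day 5 values. Its 20 genes had a median difference of 0.66, all above sham, and 17 of them (85%) did not overlap sham. The 31 C/D genes had a median of 0.42, again all above sham, and 18 (58.1%) did not overlap. Of all 19937 genes, 14.6% lay wholly above sham on day 5. On day 26 the medians were 0.49 and 0.42, and on day 12 they were 0.37 and 0.33. Among the 18 H/ACA and 20 C/D genes bright enough to be tested, the order was the other way on those days (0.49 and 0.52 on day 26, 0.39 and 0.42 on day 12), while on day 5 it was 0.66 and 0.50. Over all 20 H/ACA and 31 C/D genes the medians were 0.24 and 0.10 on day 1, and 0.19 and -0.01 on day 3. Over the tested genes they were 0.24 and 0.12 on day 1, and 0.19 and -0.03 on day 3. H/ACA RNAs are longer (median 125 bases by RefSeq, against 68 for C/D) and were brighter here (median level 7.12 against 5.85), so class, length and brightness cannot be told apart in these medians. The 26 genes longer than 91 bases, of which 19 are H/ACA, had a day 5 median of 0.62, and the 28 others had 0.38.

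The day 5 differences that passed the test over all genes belonged to Snora3, Scarna13, Snora16a and Snora73b. The test was limma with Benjamini-Hochberg adjustment over 12102 genes at 0.05. It called 4 of the 40 members on day 5, all higher, of 6 genes called higher on the array (0.0496% of all genes), the other 2 being Rnu12 and Tmem109. At an unadjusted p under 0.05, 30 of the 40 members were higher, with 4.21% of all genes, and 0 were lower, with 4.78%.

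Snora3, an H/ACA RNA, had the largest difference. It was at 10.07 and 9.35 on day 1, at 9.39, 8.90 and 8.80 on day 3, at 10.80 and 10.31 on day 5, at 9.92 and 9.13 on day 12 and at 8.68 and 9.31 on day 26, against 8.61, 8.50 and 8.24 in sham. All 11 proton samples were above all 3 sham samples, with the lowest proton sample, of day 26, close to the highest sham. The day 5 mean of 10.56 ± 0.35 (SD, n = 2) against 8.45 ± 0.19 in sham (SD, n = 3) was a difference of 2.11 ± 0.29 (SE), or 4.31-fold on the linear scale (limma adjusted p = 0.0198).

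A second probe set of Snora3 gave smaller values. It was at 10.07 and 9.73 on day 5, against 8.50, 8.87 and 8.22 in sham, a difference of 1.37 ± 0.27 (SE) that did not pass (limma adjusted p = 0.220). On day 3 it was at 8.77, 8.39 and 7.93, a difference of -0.17 where the first probe set had 0.58. The highest day was thus the same with both probe sets, while the size on day 5 and the sign on day 3 were not. With the second probe set the day 3 samples and the first day 26 sample (8.66) were under the highest sham sample (8.87). The proton samples therefore did not all lie above sham. Which of them matches which genomic copy was not checked.

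Scarna13, a Cajal body RNA, had the lowest adjusted p on day 5 of all members. Its samples were at 8.72 and 8.99 on day 1, at 8.40, 8.24 and 8.34 on day 3, at 9.77 and 9.51 on day 5, at 9.06 and 9.19 on day 12 and at 8.79 and 9.09 on day 26, against 7.59, 8.27 and 7.54 in sham. Only the second day 3 replicate fell inside the sham range, under the sham sample at 8.27. The day 5 difference was 1.84 ± 0.19 (SE), or 3.57-fold (limma adjusted p = 0.00669), and days 1, 3, 12 and 26 had 1.06, 0.53, 1.33 and 1.14. The day 26 value came next to the threshold (adjusted p = 0.0528).

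Snora16a, an H/ACA RNA from the noncoding gene Snhg12, was at 8.23 and 7.77 on day 5, against 6.80, 6.63 and 6.24 in sham. Its other proton samples were at 7.70 and 7.40 on day 1, at 7.27, 7.00 and 7.00 on day 3, at 7.70 and 7.42 on day 12 and at 7.30 and 7.44 on day 26, so that no proton sample overlapped sham. The day 5 difference was 1.44 ± 0.19 (SE), or 2.72-fold (limma adjusted p = 0.0198). Snora44, the other H/ACA RNA of Snhg12, was at 7.93 and 7.75 on day 5, against 5.93, 6.84 and 6.06 in sham, a difference of 1.56 ± 0.27 (SE) that did not pass (limma adjusted p = 0.102). The wide sham spread of Snora44 comes from the second day 1 sham sample, and without it the adjusted p was 0.0339.

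Snora73b and Snora73a are 2 copies of the U17 RNA, which is needed for cutting the rRNA precursor on the side of the small subunit. Snora73b was at 8.30 and 8.04 on day 5, against 7.03, 6.92 and 6.38 in sham, and its day 5 difference was 1.40 ± 0.19 (SE), or 2.63-fold (limma adjusted p = 0.0198). Its other proton samples lay between 7.14 and 7.75, all above sham. Snora73a was at 8.46 and 8.16 on day 5, against 7.60, 7.45 and 7.29 in sham, a difference of 0.86 ± 0.16 (SE; limma adjusted p = 0.173). The copies are close in sequence, and whether the probes separate them was not checked.

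Each of these calls rested on few samples. Without the third day 5 replicate, which leaves the averaged pair as the lone day 5 sample and assumes that it varies like the other groups, no member was called: the adjusted p was 0.0645 for Scarna13 and Snora16a and 0.173 for Snora3 and Snora73b. Without the second day 1 sham sample it was 0.0584 for Snora16a and Snora73b and 0.0693 for Snora3, and 2 members were called, Scarna13 and Snora44. Snora3 also lost its call without the first day 1 sham sample (0.0920) or the day 3 sham sample (0.107), and Snora73b without either day 26 sample (0.0512 and 0.0518). With any 1 array left out the day 5 difference lay between 1.71 and 2.07 for Scarna13, between 2.003 and 2.36 for Snora3, between 1.29 and 1.67 for Snora16a and between 1.20 and 1.53 for Snora73b.

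**Figure D3:**
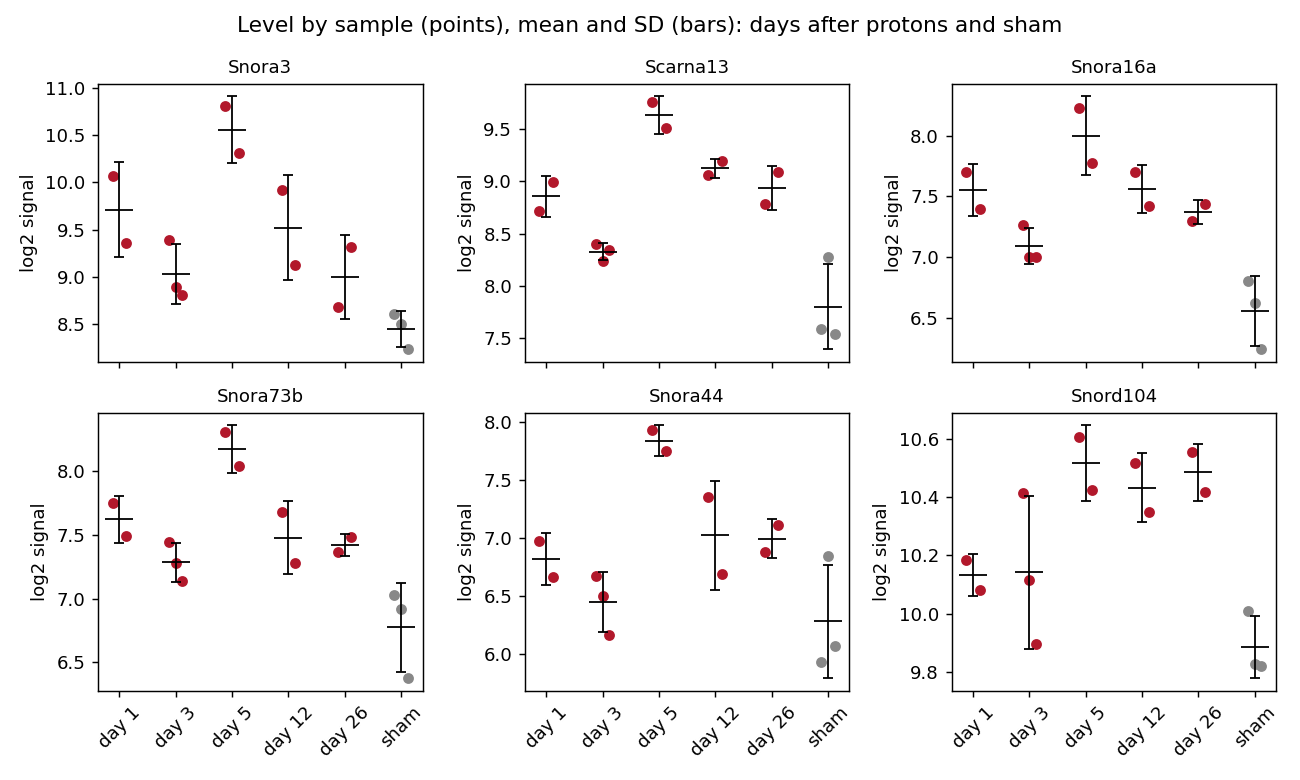
Log2 signal (vertical axes, each with its own range and not starting at 0) of 6 members by group, with proton days in order and sham at the right; points are samples, the wide bar is the mean and the thin bars are the SD. Day 5 is the highest group in each panel and sham the lowest, and for Snord104 days 5, 12 and 26 are nearly level.

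The other days gave fewer calls. On day 1 limma called 0 members (0% of all genes), with 8 at an unadjusted p under 0.05, all higher (2.55% of all genes, with 2.96% lower). On day 3 it called 0 members (0.00826% of all genes), with 7 at the unadjusted threshold (6.29%, with 2.57% lower). On day 12 it called 0 (0%), with 19 unadjusted (3.39%, with 4.62% lower), and on day 26 it called 0 (0.0248% of all genes higher and 0.0165% lower), with 26 unadjusted (8.6%, with 5.67% lower). None of the 40 was lower at the unadjusted threshold on any day. The lowest adjusted p of a member was 0.474 on day 1, 0.266 on day 3 (Snora31), 0.136 on day 12 and 0.0528 on day 26; those of days 12 and 26 were of Scarna13, and that of day 1 was shared by Scarna13 and Snora16a.

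Over the mean of the 5 proton days, 50 of the 54 genes were above sham, with a median difference of 0.30. The 4 below were Snord42a (-0.17), Snord52 (-0.15), Snord58b (-0.07) and Snord85 (-0.04), none of which reached the level for testing. Limma called 2 of the 40, Scarna13 (1.18 ± 0.14, SE; adjusted p = 0.0174) and Snora16a (0.96 ± 0.13, SE; adjusted p = 0.0411), of 3 genes called higher on the array (0.0248%), the other being Pde7a. At an unadjusted p under 0.05, 21 of the 40 were higher (6.19% of all genes) and 0 lower (5.86%). No member was called without the second array of day 1, the first of day 3, the second of day 26, the first sham of day 1 or the sham of day 3, and Scarna13 then had adjusted p values of 0.0612, 0.0563, 0.0702, 0.142 and 0.107. Scarna13 alone was called without the first array of day 1, the second of day 3, the first of day 12, the first of day 26 or the second sham of day 1. The genes whose 11 proton samples all exceeded all 3 sham samples were Snora3, Snora16a and Snora73b (5.56% of the 54, with 0.567% of all genes). For Snora3 this held with its first probe set and not with its second.

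The test for any proton day against sham called 1 member, Scarna13 (limma F-test, adjusted p = 0.0418), of 3 genes (0.0248%), and 27 of the 40 had an unadjusted p under 0.05 (9.54% of all genes). That call was lost without any 1 of 9 arrays, both of day 1, the first 2 of day 3, the third of day 5, both of day 26, the first sham of day 1 and the sham of day 3. The test for a difference among the 5 proton days compares no sham sample, though the sham samples enter its estimate of the spread. It called 0 members (limma, 0% of all genes), with 21 of the 40 at an unadjusted p under 0.05 (8.43% of all genes). By mean level, day 5 was the highest day for 31 of the 54 genes, day 26 for 15, day 12 for 7 and day 1 for 1.

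RNAs that take part in cutting the rRNA precursor made up a list of 10, of which 5 were measured: Snora73a, Snora73b, Snord118, Snord14e and Snord22. Their median difference was 0.55 on day 1, 0.34 on day 3, 0.78 on day 5, 0.59 on day 12 and 0.65 on day 26, and Snora73b on day 5 was their single call. Snord118, the U8 RNA needed for the large subunit, was at 5.55 and 5.47 on day 5, against 5.36, 4.72 and 4.11 in sham, a difference of 0.78 ± 0.30 (SE; limma adjusted p = 0.504). Its 3 sham samples spread more widely than its day 5 samples. Its sham mean (4.73) was under the limit of 5.00, so it was tested because of its proton values. The day 5 median of the list is the value of this gene. Snord22, the U22 RNA of small-subunit processing, was at 5.85 and 5.97 on day 5, against 5.71, 5.24 and 5.39 in sham. Its highest day was day 12, at 6.24 and 6.04, a difference of 0.69 ± 0.18 (SE; limma adjusted p = 0.506).

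Snord14e, a copy of the U14 RNA of small-subunit processing and one of the brightest C/D members, followed the others least. It was at 9.75 and 9.64 on day 5 and at 9.90 and 10.02 on day 26, against 9.18, 8.23 and 9.77 in sham. The sham samples of this gene span more than its proton samples, and on day 12 (8.78 and 9.10) its difference was -0.12. Of a further list of 9 C/D RNAs that are imprinted and made in the brain, 0 had a single-symbol probe set.

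Snord104 was the C/D member with the smallest p in the test for any proton day. It was at 10.61 and 10.42 on day 5, at 10.52 and 10.35 on day 12 and at 10.55 and 10.42 on day 26, against 10.01, 9.83 and 9.82 in sham. All of these late samples were above sham, the day 5 difference being 0.63 ± 0.13 (SE; limma adjusted p = 0.269) and the day 26 difference 0.60 ± 0.13 (SE; limma adjusted p = 0.104). Snord15b from Rps3 had 0.63 on day 5 and 0.71 on day 26, Snord49a had 0.49 and 0.51, Snord49b had 0.61 and 0.54, and Snord87 had 0.65 and 0.63. None of these 4 passed on any day.

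The 2 brightest members and Scarna17 differed little from sham on day 5. Snora52, the brightest of all, was at 11.55 and 11.52 on day 5, against 11.30, 11.45 and 11.05 in sham, a difference of 0.27 ± 0.12 (SE; limma adjusted p = 0.550). Snord57 was at 11.24 and 11.10 on day 5, against 11.14, 11.08 and 10.82 in sham, a difference of 0.16 ± 0.10 (SE; limma adjusted p = 0.681), and its groups overlapped. Scarna17 was at 9.89 and 9.81 on day 5, against 9.89, 9.95 and 9.40 in sham, with a difference of 0.10 ± 0.19 (SE), and was higher on day 26 (10.26 and 10.27) than in any sham sample.

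By level, the day 5 medians were 0.27 for the 14 genes under the limit for testing, 0.50 for the 19 from there to a level of 7, 0.73 for the 12 between 7 and 9 and 0.31 for the 9 above 9. The 9 brightest still held Snora3 at 2.11 and ran down to 0.10. The median spread within groups was 0.27, 0.24, 0.24 and 0.21 (SD) in these bands. The highest value on these arrays is 12.9, and the part of background or of the top of the range in these medians was not tested.

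**Figure D4:**
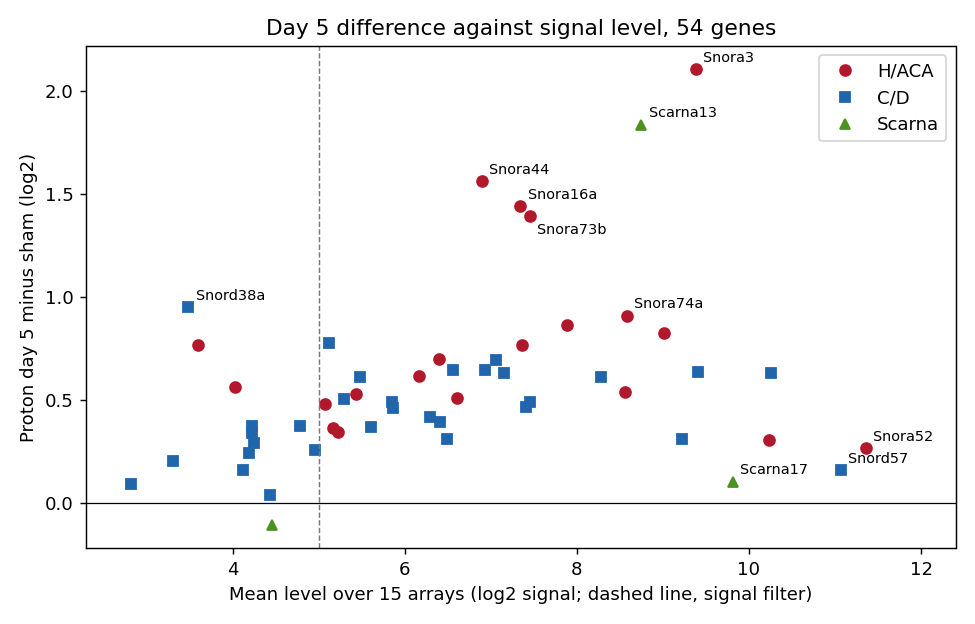
Day 5 minus sham (log2, vertical axis) against mean level over 15 arrays (log2 signal, horizontal axis) for the 54 genes by class, with a dashed line at the limit for testing. The differences over 1.3 lie at levels between 6.9 and 9.4, and the brightest, Snora52 and Snord57, are at 0.27 and 0.16.

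Members moved together from sample to sample. Over the 14 samples, 30 of the 40 tested members had a Pearson correlation above 0.7 with the mean of the other members (median 0.84), a limit set after the values were seen, and 0.846% of the other 12062 genes had as much. With the group means removed, 22 of the 40 still had it (median 0.77), with 2.55% of other genes, so samples of 1 group that were high for one member tended to be high for others. The points share the array, its scaling and its RNA preparation. Snora73a was nearest to the mean of the rest (r = 0.98), then Snora21 (0.96), Snora30 (0.95) and Snora69 (0.94), while Snord14e (0.16), Snora75 (0.37) and Snora31 (0.38) were farthest. Among other genes the most alike were Hs6st1 (0.92), Rce1 (0.92) and Gas5 (0.91).

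RefSeq places 53 of the 54 small RNAs inside another gene, 40 in a protein-coding gene and 13 in a long noncoding one, and 21 of them in genes for ribosomal proteins; Snord118 is the exception. The tables used give no strand for the small RNAs, so the enclosing gene is a matter of position only. For 27 of the 50 with exactly 1 enclosing gene, that gene had a probe set of its own. Members inside more than 1 gene were left out of these pairs after the values were seen.

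On day 5 the small RNA had the higher difference in 26 of the 27 pairs. The median was 0.48 for the small RNAs in the pairs and -0.03 for the 21 tested genes around them, of which 7 were above sham. Limma called 0 of the 21 (0.0496% of all genes higher and 0% lower). At an unadjusted limma p under 0.05 there were 3, all lower: Eef1b2 (-0.39), Rpl27a (-0.23) and Tpt1 (-0.13). Of all genes tested, 4.78% were lower and 4.21% higher at that threshold. On days 1, 3, 12 and 26 the small RNA was higher in 21, 18, 23 and 25 of the 27 pairs, and the median of the 21 genes was -0.02, 0.04, -0.04 and -0.07. The exception on day 5 was Scarna8 (-0.11) in Haus6 (0.29), both below the limit for testing.

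The widest pair was Snora3 with Rpl27a, a protein of the large ribosomal subunit, at 2.11 and -0.23. The second probe set of Snora3 had 1.37, and which of its probe sets matches the copy inside Rpl27a was not checked. Snora21 had 0.83 in Rpl23 (-0.03), and its second probe set had 0.78. Snora62 had 0.70 in Rpsa (-0.17), and Snora31 had 0.62 in Tpt1 (-0.13). Snora75 and Snord82, both in the nucleolin gene Ncl, had 0.34 and 0.31 where Ncl had 0.07. In these pairs the difference of the small RNA was larger than that of the gene around it, whether or not that gene encodes a ribosomal protein.

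**Figure D5:**
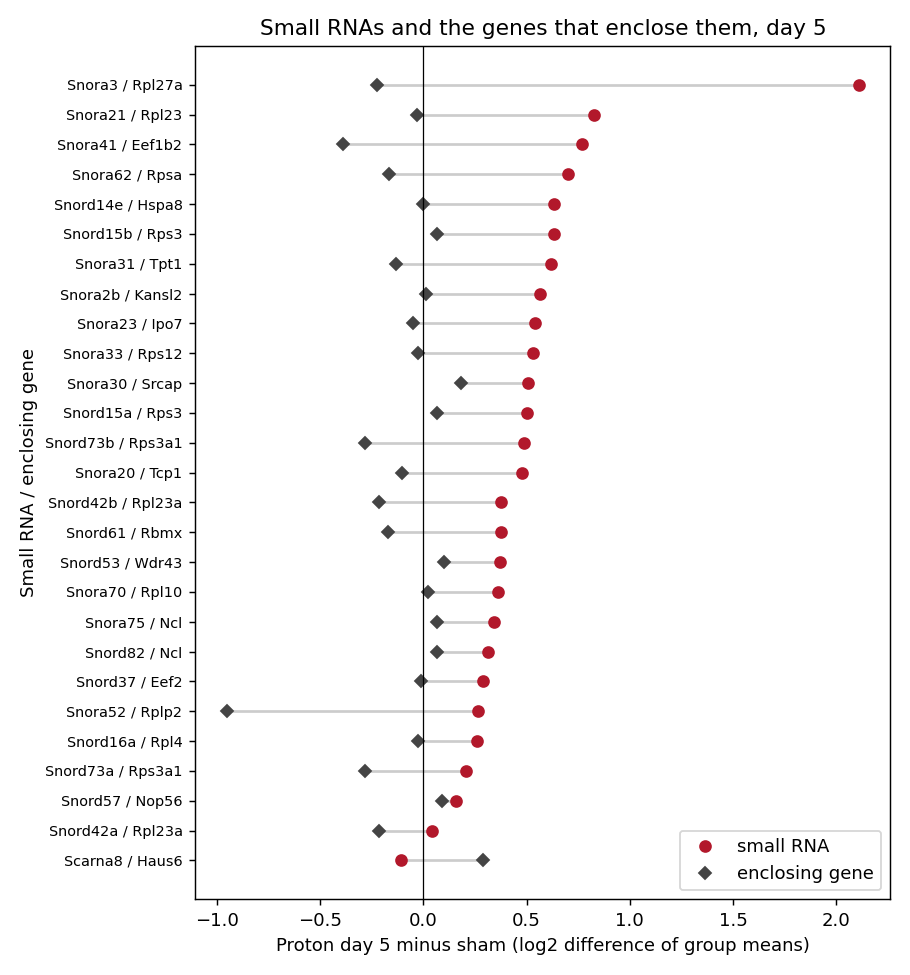
Day 5 minus sham (log2 difference of group means, horizontal axis) for 27 small RNAs (circles) and the genes that enclose them (diamonds), a line joining each pair. The circle lies to the right of the diamond in all pairs but Scarna8 with Haus6.

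Small RNAs inside the same gene were close in some cases and apart in others. In Snhg12, Snora16a and Snora44 had day 5 differences of 1.44 and 1.56, and in Snhg3, Snora73a and Snora73b had 0.86 and 1.40. In Rps3, Snord15a and Snord15b had 0.50 and 0.63, and in Rpl13a, Snord33 and Snord35a had 0.69 and 0.46. In Rpl23a, Snord42a and Snord42b had 0.04 and 0.38, both dim.

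Of a list of 15 noncoding genes that host small nucleolar RNAs, 4 had a probe set and 3 were tested, and their day 5 differences were 0.59 ± 0.27 (SE) for Dancr, 0.52 ± 0.14 (SE) for Gas5 and 0.41 ± 0.15 (SE) for Snhg5, none past the threshold (lowest limma adjusted p on day 5 = 0.378). On other days Snhg5 was below sham, at -0.15 on day 1 and -0.24 on day 12. Gas5, whose introns hold several C/D RNAs, encloses Snord47, which had 0.65 on day 5. Whether probes of Gas5 reach its introns was not checked.

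The genes that enclose the leading members are shown by their promoters, since Snora3, Scarna13, the Snhg12 pair and the Snhg3 pair carry the results above. The stretches run from 100 bases before the annotated start to 20 after it, 5′ to 3′ on the strand of the gene, from RefSeq on GRCm38.p6. Capitals mark the motif CTTTC or the motif CTTTT, or else the motif TATAAA or the motif TATATA, all chosen after the sequences were seen. The last of these reads the same on both strands. Rpl27a (around Snora3) is at chr7:109519095-109519214 on the plus strand, Snhg10 (around Scarna13) at chr12:105032260-105032379 on the minus strand, Snhg12 at chr4:132308578-132308697 on the plus strand and Snhg3 at chr4:132353667-132353786 on the minus strand.
Rpl27a: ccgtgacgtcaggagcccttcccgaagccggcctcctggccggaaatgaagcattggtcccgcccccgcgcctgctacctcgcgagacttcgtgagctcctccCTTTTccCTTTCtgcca
Snhg10: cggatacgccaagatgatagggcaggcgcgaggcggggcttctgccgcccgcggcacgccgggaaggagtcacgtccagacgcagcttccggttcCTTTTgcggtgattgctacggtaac
Snhg12: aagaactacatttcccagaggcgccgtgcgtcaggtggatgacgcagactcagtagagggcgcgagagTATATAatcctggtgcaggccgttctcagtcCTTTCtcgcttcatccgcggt
Snhg3: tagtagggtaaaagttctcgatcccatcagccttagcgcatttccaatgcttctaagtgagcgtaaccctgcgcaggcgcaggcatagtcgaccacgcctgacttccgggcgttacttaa

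In Rpl27a, Snhg10 and Snhg12 at least 1 of the pyrimidine motifs lies near the start, while in Snhg3 none of the 4 motifs was found on this strand and CTTTT was found on the other. Promoters were found for 31 enclosing genes, 32 starts in all. From 15 bases before the start to 25 after it, CTTTC stood in 7 of the 32 (21.9%, with 5.28% of all 32851 promoters of the table) and CTTTT in 5 (15.6%, with 4.09%). On the opposite strand the shares were 3.12% for each, with 4.94% and 3.84% of all. Such pyrimidine starts are a known mark of genes for ribosomal proteins, which many of these are. In the whole stretch of 120 bases, TATAAA stood in 4 of the 32 (12.5%, with 4.12% of all) and TATATA in 3 (9.38%, with 2.4% of all).

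Other small RNAs did not all follow. Rnu12, which encodes U12 for the minor spliceosome, was at 7.54 and 7.73 on day 1 and at 7.83 and 7.59 on day 5, against 6.38, 6.50 and 5.97 in sham. Its day 5 difference was 1.43 ± 0.19 (SE; limma adjusted p = 0.0198), while on day 26 it was at 6.27 and 6.26, inside the sham range. On day 26 Scarna13, Snora16a and Snora73b were above all sham samples. Snora3 was above them narrowly (8.68 against 8.61), and with its second probe set 1 sample was not. Rn7sk, the 7SK RNA that holds back transcription elongation, had 0.09 ± 0.04 (SE) on day 5 at a level of 12.55. Rmrp (0.38), Rpph1 (0.30), Terc (0.43) and Vaultrc5 (0.50) were above sham on day 5 and Rny3 was below (-0.39), none past the threshold. The 69 tested microRNA genes had a median of 0.10 on day 5 and 0.25 on day 26. On day 5, 47 were above sham (68.1%, with 51.2% of all tested genes) and 14 wholly above it (20.3%, with 16.8%). On day 26, 59 were above sham (85.5%, with 58.8%) and 35 wholly above it (50.7%, with 24.7%). Of the 40 tested members, 77.5% lay wholly above sham on day 5 and 67.5% on day 26.

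The proteins of the particles gave no calls on any day. The 6 of the H/ACA list had a day 5 median of -0.14, among them Dkc1, the pseudouridine synthase, at 0.09 ± 0.14 (SE) and Nop10 at -0.27 ± 0.12 (SE). The 9 tested of the C/D list had -0.04, among them the methyltransferase Fbl at -0.17 ± 0.13 (SE) and Nop58 at 0.33 ± 0.15 (SE). The 7 tested proteins of Cajal bodies and nucleoli had -0.06, among them Npm1 at -0.36 ± 0.11 (SE), and the 6 of small RNA decay and end processing had -0.08, among them Exosc3 at -0.34 ± 0.14 (SE). The lowest limma adjusted p over these 4 lists was 0.0826, for Npm1 on day 26 (-0.56 ± 0.11, SE).

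The median of each list of markers of other cells was above sham on every proton day but day 3, where the lists differed. On day 1 lymphocyte markers were above sham in 6 of 7 tested (median 0.68), fibroblast markers in 11 of 11 (0.52), macrophage and monocyte markers in 14 of 14 (0.63) and endothelial markers in 13 of 14 (0.44), while the 54 small RNAs had a median of 0.16. On day 3 the medians of these lists were -0.24, 0.15, -0.08 and -0.11, and on day 12 they were 0.88, 0.55, 0.45 and 0.40. On day 5 lymphocyte markers were above sham in 7 of 7 tested (median 0.76), fibroblast markers in 11 of 11 (0.45), macrophage and monocyte markers in 13 of 14 (0.29) and endothelial markers in 9 of 14 (0.05). On day 26 the medians were 1.15, 0.60, 0.54 and 0.47. The 12 cardiomyocyte markers had -0.02 on both days. No list had a call, and no marker of any list was at 0; the dimmest were Cd3d (3.73), Ccr2 (4.64), Tcf21 (4.67) and Erg (5.97).

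The summed linear signal of the 11 measured lymphocyte markers was 541 to 683 on day 5 and 780 to 806 on day 26, against 302 to 402 in sham. That of the 12 fibroblast markers was 4227 to 4433 on day 5 and 4061 to 5529 on day 26, against 2652 to 3515 in sham. That of the 15 macrophage and monocyte markers was 2942 to 3045 on day 5 and 3576 to 3612 on day 26, against 1789 to 2909 in sham. That of the 14 endothelial markers was 2696 to 3561 on day 5 and 3118 to 4525 on day 26, against 2517 to 3260 in sham. With a score of endothelial, fibroblast and macrophage markers as a covariate the day 5 median of the 40 tested small RNAs was 0.60, all 40 above sham. In that fit 7 were called, the same 4 among them, of 17 genes called on the array, where the main fit called 6 genes. The part of the lymphocyte markers in the result was not tested.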

How the data were processed

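The deposited table holds log2 signals of 34760 probe sets on 15 Affymetrix Mouse Gene 1.0 ST arrays. The submitters' processing notes name MAS5 with no version, and background correction and scaling by the authors are not given in the sources used here. Array medians lay between 4.90 and 5.16, and the values were used as deposited. Genes come from the annotation of the platform (21640 probe sets with 1 symbol, 1321 with several, 11799 not listed), enclosing genes and promoters from RefSeq, GRCm38.p6.

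Each gene was tested by limma 3.58.1 under R 4.3.3, using lmFit and a trended eBayes, over the 14 samples and 6 groups, with 12.1 degrees of freedom in the moderated test. Genes with a mean above 5.00 were tested (12102), with Benjamini-Hochberg adjustment over all of them at 0.05. Descriptions were made in Python 3.11.15 with pandas 2.3.3. The procedure was tested on simulated data. The members, the gene lists and the tests were chosen with earlier results of these data known. Genes were named for passing a test, a small p in the test of any day, a high level, an extreme mean difference, or as a fixed name; from each list up to 3 by p. A few further names, among them Snora69, Snora62, Dkc1, Fbl and the pairs, were added after their values were seen. Same-numbered samples of different groups did not deviate together (26 pairs, median r -0.083, 10 above 0.1), so replicate numbers were not used as pairs.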

Additional observations from a re-analysis of the deposited data

Results flagged for a closer look

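Snord53, a C/D RNA inside Wdr43, lay on opposite sides of sham on different days. Both samples of day 12 (difference 0.27) and both of day 26 (0.53) were above all 3 sham samples, while both samples of day 1 (-0.25) and all 3 of day 3 (-0.15) were below all of them. Its samples were at 5.22 and 5.20 on day 1, at 5.30, 5.38 and 5.25 on day 3, at 6.25 and 5.42 on day 5, at 5.89 and 5.57 on day 12 and at 5.88 and 6.10 on day 26, against 5.44, 5.48 and 5.46 in sham. The 3 sham samples of this gene lie within a narrow range, from 5.44 to 5.48. Across the 5 proton days limma's F-test gave an adjusted p of 0.471 over all genes. All days share the same sham samples, and groups of 2 or 3 samples were not searched for outlying ones.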

How the results depend on the processing

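The counts of called members depended on the settings, as did those over all genes. On day 5 the main fit called 6 genes of the array, all 15 arrays 32, array weights 47 and the score 17. In that order day 26 had 5, 54, 309 and 128, and the mean of the proton days 3, 10, 24 and 19. Any proton day had 3, 28, 55 and 109, and the test among days 0, 11, 20 and 64. On day 26 quantile normalization gave 26, the 75th percentile filter 23, the robust variance 25 and only the groups compared 46. The counts below are of members. The day 5 count of 4 was 9 with all 15 arrays or with array weights, 7 when the marker score was a covariate, 1 with no variance trend, and 0 with the replicate block, and 0 to 4 when 1 array was left out. The day 26 count of 0 was 1 with quantile normalization, the filter at the 75th percentile, all 15 arrays, the robust variance or only the groups compared, 5 with array weights and 6 with the score, and 0 to 2 without 1 array. The count of 2 for the mean of the proton days was 1 with quantile normalization, equal array medians or no variance trend, 5 with array weights, 7 with the score, 0 with the sham of day 1 only or the replicate block, and 0 to 2 without 1 array. The count of 1 for any proton day was 0 with equal array medians, no variance trend, the sham of day 1 only or the replicate block, 4 with all 15 arrays, 5 with array weights, 8 with the score, and 0 to 1 without 1 array. The count of 0 among days was 1 with all 15 arrays or array weights, 2 with the score, and 0 to 1 without 1 array. On day 12 the 0 was 1 with all 15 arrays, and 0 to 1 without 1 array; on day 1 it was 0 to 1 without 1 array, and on day 3 it was 0 in every setting run. The block left out the sham of day 3 and gave the averaged day 5 sample the number 1. The numbers do not pair the samples, and the cause of the lost calls was not tested.

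Directions changed for 5 differences of named members, none of them called. With the sham of day 1 only, which is the same as leaving out the sham of day 3, the mean difference was -0.070 for Scarna17 (and -0.070 on day 5), -0.10 for Snora75 and -0.024 for Snord57. With the replicate block it was -0.0014 for Scarna17, -0.094 for Snora75 and -0.0013 for Snord57. With 1 array left out the mean difference ran from -0.070 to 0.21 for Scarna17 (on day 5 also -0.070 to 0.21), from -0.10 to 0.37 for Snora75, from -0.017 to 0.75 for Snord14e and from -0.024 to 0.14 for Snord57.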
